A study of Mus musculus with 1615 samples.

Results

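Olfr558 and Olfr78 are 2 olfactory receptor genes that were described here in single cells of mouse colon, chosen by name for their place in mural cells, the smooth muscle cells and pericytes that wrap blood vessels. They are 2 of 46517 gene rows of the count table and 2 of its 1198 rows with an Olfr symbol. The table holds 1615 cells from 11 mice on 13 plates. Each cell was sequenced by Smart-Seq2, which copies whole transcripts and marks no single molecules. The mice carried 1 of 5 fluorescent reporters as their labelled strain. The line ACTA2GFP:CSPG4dsRED, which carries an Acta2 and a Cspg4 reporter, gave 1106 cells from the females 20GG79:1 and 20GG95:3 and the male 20GG79:6. The lines ACTA2GFP, CSPG4dsRED, PDGFRaH2bGFP and PDGFRbGFP gave 509 cells from 8 males. No treatment is labelled, and all mice share a labelled age of 8 to 30 weeks. The series' design text instead speaks of males aged 8 to 21 weeks, so the sources disagree on age and on the sex of the 2 mice labelled female. The sources used here give neither the background strain nor the gates of the cell sort. Colon is the labelled tissue, although the extraction protocol describes heart.

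Olfactory receptors are G protein-coupled receptors that odorant molecules activate in the sensory neurons of the nose. There they couple to the stimulatory G protein encoded by Gnal, to the adenylyl cyclase encoded by Adcy3 and to a cyclic nucleotide-gated channel. Some members of the family are also expressed outside the nose. Olfr78 is known as a receptor for short-chain fatty acids such as acetate and propionate, with reported roles in blood pressure and in the oxygen-sensing cells of the carotid body. Both genes have a human counterpart, OR51E2 for Olfr78 and OR51E1 for Olfr558.

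Both genes lie in 1 cluster of olfactory receptor genes on chromosome 7 of GRCm38. Olfr558 (ENSMUSG00000070423) spans positions 102702215 to 102712064 on the plus strand. Olfr78 (ENSMUSG00000043366) spans 102738511 to 102759471 on the minus strand, so that the genes face each other across 26.4 kb. The coding sequence of Olfr558 has 951 bases before the stop codon (102709261 to 102710211) and that of Olfr78 has 960 (102742042 to 102743001), each within a single exon. In a global alignment, 601 of 942 aligned positions were identical, 63.8%. The 90-base window of the alignment with the most identical positions, 68, is shown because it bears on whether reads of the genes can be told apart. Capitals mark bases that both genes share.
Olfr558, chr7:102709545-102709634, plus strand: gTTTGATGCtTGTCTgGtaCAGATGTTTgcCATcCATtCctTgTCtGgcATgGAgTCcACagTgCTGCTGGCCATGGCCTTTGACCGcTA
Olfr78, chr7:102742637-102742726, minus strand: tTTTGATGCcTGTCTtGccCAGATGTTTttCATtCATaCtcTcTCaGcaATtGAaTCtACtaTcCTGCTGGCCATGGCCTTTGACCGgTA

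The run of capitals near the end of this window, 23 bases long, was the longest stretch that transcripts of the 2 genes shared on either strand. Of the 40-base words in their coding sequences, 0 of 912 for Olfr558 and 0 of 921 for Olfr78 occurred in a transcript of any other gene of GENCODE vM21. Over whole transcripts, 62 of 3002 words of Olfr558 and 899 of 6026 of Olfr78 did. Of the latter, 849 lay in Olfr560, a receptor gene annotated within Olfr78 on the same strand. Olfr560 has no row in the count table, so its level could not be described. How reads of those parts of Olfr78 were assigned was not tested. The sources used here give no read length, and 40 bases is a setting chosen here.

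The RefSeq table of promoters (GRCm38.p6) matched Olfr558 of the 2 genes. Its sequence from the start of the table's window to the base before the annotated start of the gene is shown because the level of Olfr558 differed so much between cell classes. Capitals mark an E-box (CANNTG).
Olfr558, chr7:102702073-102702214, plus strand: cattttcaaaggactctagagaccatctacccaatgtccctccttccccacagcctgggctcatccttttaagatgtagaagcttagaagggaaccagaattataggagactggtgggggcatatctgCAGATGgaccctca
In the 250 bases before the RefSeq start, searched on both strands, the E-box matched once, as it did at least once in 66.2% of 32544 promoters of that length. The word TGGGAA, the core that RBPJ of the Notch pathway binds, also matched once, downstream of the stretch shown, and 21.6% of promoters held it. The CArG box of smooth muscle genes (in 1.48% of promoters), AGATAA (9.97%), ACGTG (16.6%) and GGAATG (12.6%) had no match. Such matches describe letters of this window and do not show a bound factor.

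Cells were sorted into 9 named classes by clustering on other genes. Neither member nor any other Olfr gene entered the clustering. A cell had 45388 to 1046988 gene counts (median 194180), and plate medians lay between 103035 and 438820. Vascular smooth muscle-like cells numbered 112 (20 of 20GG79:1, 1 of 20GG79:6, 91 of 20GG95:3) and pericyte-like cells 165 (42, 29 and 94). All of these mural cells came from the dual reporter line. The vascular class had 877 ± 66.1 CPM (counts per 1000000 gene counts of the summed cells, mean ± SD, n = 2 mice) of Pln, a regulator of the calcium pump, and 654 ± 369 CPM of P2rx1, an ATP receptor of arterial muscle, against 103 ± 116 and 29.6 ± 40.5 CPM in pericyte-like cells (n = 3 mice). Kcnj8 and Abcc9, the channel subunits that mark pericytes, stood at 1166 ± 501 and 895 ± 308 CPM in pericyte-like cells (n = 3 mice) and at 91.0 ± 45.2 and 145 ± 126 CPM in vascular cells (n = 2 mice). By their means Nrip2, Map3k7cl, Higd1b and Colec11 also parted these classes, and the other fixed markers of both did so less. In vascular against pericyte-like cells Rasl12 had 1055 and 732 CPM, Mustn1 782 and 462, and Sncg 322 and 194. Rgs5 had 2259 and 4063 CPM, Pdgfrb 1578 and 2865, and Cspg4 986 and 1391. Acta2 and Myh11 stood at 2682 and 1603 CPM in pericyte-like cells, against 6333 and 5009 CPM in vascular cells. Notch3, a marker of both, was above 1800 CPM in every mouse of both classes and below 10 CPM in visceral smooth muscle-like cells. The visceral class, muscle of the gut wall, numbered 465 cells and had 2839 ± 521 CPM of Actg2 (n = 3 mice), while its marker Chrm3 was at or near 0 in all 3 classes. Its marker Synm was higher in vascular (175 ± 6.29 CPM) than in visceral cells (67.2 ± 39.9 CPM). The pericyte markers Kcnj8 and Abcc9 stood at 434 ± 337 and 377 ± 299 CPM in visceral cells, above their vascular means. Pericyte-like cells fell into a cluster of 79, mostly of 20GG79:1 and 20GG79:6, and a cluster of 86, of which 84 were of 20GG95:3. The mean of the fixed fibroblast markers in pericyte-like cells was 5.53, 3.99 and 3.21 on the log2(CPM + 1) scale in 20GG79:1, 20GG79:6 and 20GG95:3, and its part in the results was not tested. A cluster of 66 cells, mostly of 20GG79:6, that held visceral muscle genes and was led by the mesothelial genes Upk3b and Msln, and another of 20 cells, stayed unnamed.

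Both receptors were genes of mural cells in this table. Of the 448 cells with a count of Olfr558, 211 were mural, and these held 96.6% of its 19223 counts. Of the 409 cells with a count of Olfr78, 207 were mural and held 96.5% of its 21404 counts. In vascular smooth muscle-like cells Olfr558 was detected in 87 of 112 cells, 77.7% (exact Clopper-Pearson 95% interval 68.8 to 85.0), and Olfr78 in 99, 88.4% (81.0 to 93.7). In pericyte-like cells the shares were 75.2% (67.8 to 81.5) for Olfr558, 124 of 165 cells, and 65.5% (57.7 to 72.7) for Olfr78, 108 cells. In visceral smooth muscle-like cells they were 11.2% (8.47 to 14.4) for Olfr558 and 12% (9.23 to 15.4) for Olfr78. The first rests on the mice pooled, with 24.1% of 162 cells in 20GG79:1 and 4.03% of 298 in 20GG95:3, and was 24.0% without 20GG95:3 and 4.29% without 20GG79:1. These shares were found at a median depth of 188539 gene counts against 169774 in the vascular and 118243 in the pericyte class. Thinned to 45000 gene counts per cell, the vascular class kept 66.2% of cells with Olfr558 and 78.5% with Olfr78, and the pericyte class 58.0% and 47.4%. Intervals cover counting error only, since they treat pooled cells as independent draws and leave out differences between mice. Olfr558 was detected in 97.6% of pericyte-like cells in 20GG79:1, 86.2% in 20GG79:6 and 61.7% in 20GG95:3, all outside its pooled interval. For Olfr78 these shares were 69.0%, 75.9% and 60.6%. Among vascular cells, 17 of 20 in 20GG79:1 and 69 of 91 in 20GG95:3 held Olfr558, and 19 and 79 held Olfr78. Amplified reads are also not independent molecules when molecules carry no identifier.

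**Figure D1:**
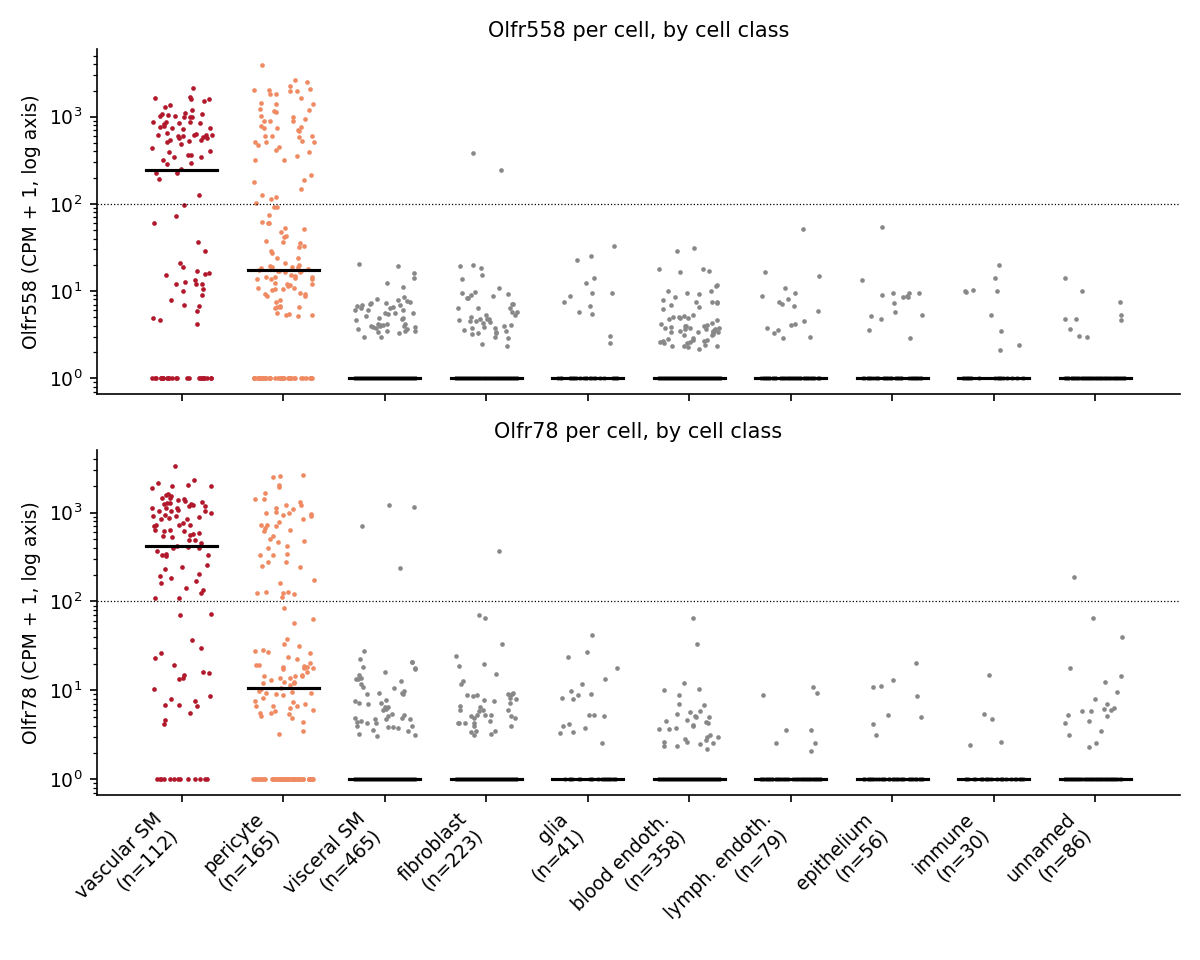
Olfr558 (top) and Olfr78 (bottom) in each of 1615 cells, as CPM + 1 on a log axis, by cell class. Each point is a cell, black bars are class medians and the dotted line marks 100 CPM. Mural cells lie on both sides of the line, while cells of the other classes lie at 0 or under the line but for 2 cells for Olfr558 and 6 for Olfr78.

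The level varied widely among mural cells. Of the 124 pericyte-like cells with a count of Olfr558, 22 had under 10 CPM, 48 between 10 and 100 CPM and 54 at least 100 CPM. Cells at 100 CPM or more, called the high range here and set after the values were seen, held 98.9% of all Olfr558 counts and 99.4% of all Olfr78 counts of the vascular class, and 97.5% and 98.5% of those of the pericyte class. Of the vascular cells 61 were in the high range for Olfr558, 54.5% (44.8 to 63.9), with a median of 628 CPM among them. For Olfr78 it was 77 vascular cells, 68.8% (59.3 to 77.2), with a median of 755 CPM. Fewer pericyte-like cells were in it, 54 for Olfr558, 32.7% (25.6 to 40.5), and 48 for Olfr78, 29.1% (22.3 to 36.7). Among the pericyte-like cells high for Olfr558 the median was 753 CPM. The highest single cells were pericyte-like for Olfr558, at 3932 CPM, and vascular for Olfr78, at 3330 CPM. Over all cells of the class, the median was 244 CPM of Olfr558 and 415 CPM of Olfr78 in vascular cells and 16.4 and 9.54 CPM in pericyte-like cells.

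Per mouse, Olfr558 in vascular smooth muscle-like cells stood at 494 CPM in 20GG79:1 and 436 CPM in 20GG95:3, and the only vascular cell of 20GG79:6 had 731 CPM. In pericyte-like cells it stood at 422 CPM in 20GG79:1, 477 CPM in 20GG79:6 and 289 CPM in 20GG95:3. The classes therefore overlapped between mice, with the pericyte-like sum of the male above the vascular sum of 20GG95:3. Olfr78 in vascular cells stood at 600 CPM in 20GG79:1 and 631 CPM in 20GG95:3, with 366 CPM in the 1 cell of 20GG79:6. In pericyte-like cells it stood at 172, 583 and 242 CPM in 20GG79:1, 20GG79:6 and 20GG95:3. Both females were well below their own vascular sums, and the male, with 12 of 29 pericyte-like cells in the high range against 5 of 42 in 20GG79:1 and 31 of 94 in 20GG95:3, was near them.

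**Figure D2:**
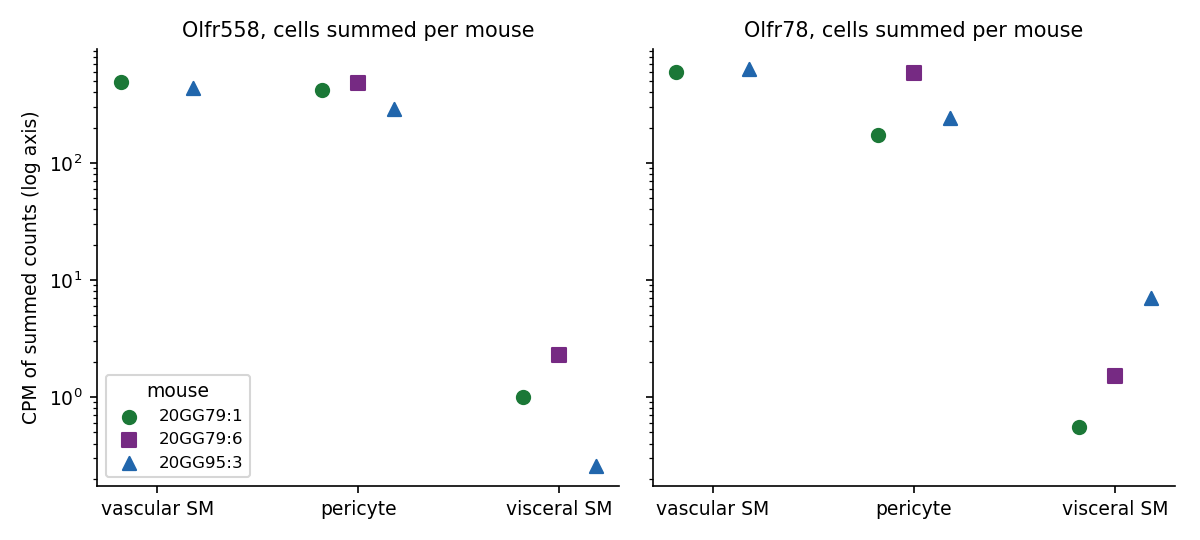
Summed counts of each class and mouse for Olfr558 (left) and Olfr78 (right), in CPM on a log axis, for vascular smooth muscle (SM), pericyte-like and visceral smooth muscle-like cells. Each point is a mouse with at least 5 cells in the class, and the mural sums lie between 172 and 631 CPM while the visceral sums lie at 6.97 CPM or lower.

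Pericyte-like and vascular cells were compared within the 2 females that had at least 5 cells of each, with edgeR's quasi-likelihood test on summed counts, the mouse as a block and Benjamini-Hochberg adjustment over the genes not used for clustering. Olfr78 had a log2 difference of -1.79 ± 0.34 (SE) between pericyte-like cells, at 207 ± 49.3 CPM, and vascular cells, at 615 ± 22 CPM (mean ± SD, n = 2 mice), lower in 2 of 2 mice with an edgeR adjusted p of 0.307. Olfr558 had a log2 difference of -0.60 ± 0.34 (SE), 355 ± 94.4 against 465 ± 40.8 CPM, lower in 2 of 2 mice with an edgeR adjusted p of 0.746. Neither passed the threshold of 0.05, and of 12752 genes tested 0 did, a background of 0%, while 1110 had an unadjusted p under 0.05. DESeq2 called 802 genes and limma-voom 0, and Olfr78 passed with DESeq2, at -1.78 and an adjusted p of 0.0210, and without a filter on low counts, at -1.85 and an edgeR adjusted p of 0.00136. Within each mouse, the summed levels alone gave Olfr558 a log2 difference of -0.23 in 20GG79:1 and -0.60 in 20GG95:3, and Olfr78 one of -1.80 and -1.38. A fit that both left out 20GG95:3 and took its spread and mouse terms from all classes gave Olfr558 a value of 0.37, against the order of the sums in the mouse that remained. A test with 1 residual degree of freedom rests mainly on a spread pooled over genes, so these values do not show that the classes had equal levels.

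The plates of 20GG95:3 differed in level. On its smaller plate Olfr558 stood at 524 CPM in 52 vascular cells and 522 CPM in 32 pericyte-like cells. On its larger plate it stood at 317 CPM in 39 vascular cells and 146 CPM in 62 pericyte-like cells. Olfr78 stood at 722 and 310 CPM in the vascular and pericyte-like cells of the smaller plate and at 507 and 200 CPM in those of the larger, so that it was lower in pericyte-like cells on both, while Olfr558 differed little on the smaller. The high range held 82.7% of the vascular cells for Olfr78 on the smaller plate and 53.8% on the larger.

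Within pericyte-like cells, both clusters held the receptors, and in 20GG95:3 their means per cell differed mainly in Olfr78. The 10 cells of 20GG95:3 in the cluster shared with the other mice had a mean per cell of 337 CPM of Olfr558 and 508 CPM of Olfr78. Its 84 cells in the other cluster had a mean per cell of 293 CPM of Olfr558 and 188 CPM of Olfr78, so that Olfr78 was lower there while Olfr558 was similar. Across the 165 pericyte-like cells, Olfr558 had a Pearson correlation on the log2(CPM + 1) scale of -0.29 with the mean of 6 smooth muscle markers such as Acta2 and Myh11, and Olfr78 one of 0.29. Within mice the first was -0.38 in 20GG79:1 (42 cells), 0.03 in 20GG79:6 (29 cells) and -0.34 in 20GG95:3 (94 cells), and the second 0.09, 0.55 and 0.20. In the 112 vascular cells the values were 0.08 and 0.05. Correlation with gene counts per cell was 0.13 for Olfr558 and 0.07 for Olfr78 in pericyte-like cells and 0.10 and -0.02 in vascular cells. These are descriptions over cells that share mice, plates and sequencing depth.

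The 2 receptors occurred together about as often as their shares in each class give. At 1 count or more, 77 of the 112 vascular cells held both, 10 held Olfr558 alone, 22 Olfr78 alone and 3 neither. Of the vascular cells with Olfr558, 88.5% also held Olfr78, against 88.4% of all vascular cells, and of those with Olfr78, 77.8% also held Olfr558, against 77.7% of all. In pericyte-like cells 81 of 165 held both, 43 Olfr558 alone, 27 Olfr78 alone and 14 neither, so that 65.3% of the cells with Olfr558 held Olfr78, against 65.5% of all pericyte-like cells, and 81 of the 108 with Olfr78 held Olfr558, against 124 of all 165. Of the mural cells, 93.9% of 277 mural cells held at least 1 of the receptors. By mouse, the share of Olfr558-positive mural cells that also held Olfr78 was 77.6% in 20GG79:1, 76.9% in 20GG79:6 and 73.2% in 20GG95:3. The converse share was 93.8%, 87.0% and 68.4%.

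At 100 CPM or more, 50 vascular cells were high for both receptors, 11 for Olfr558 alone, 27 for Olfr78 alone and 24 for neither, so that 82.0% of the cells high for Olfr558 were also high for Olfr78, against 68.8% of all vascular cells. Among pericyte-like cells 17 were high for both, 37 for Olfr558 alone, 31 for Olfr78 alone and 80 for neither, and the share was 31.5%, against 29.1% of all pericyte-like cells. In 20GG79:1 it was 70.0% of 10 vascular cells, against 60.0% of all its vascular cells, and 15.4% of 13 pericyte-like cells, against 11.9% of all. In 20GG95:3 it was 84.0% of 50 vascular cells, against 70.3% of all, and 31.0% of 29 pericyte-like cells, against 33.0% of all. In 20GG79:6, 6 of the 12 pericyte-like cells high for Olfr558 were also high for Olfr78, against 12 of all 29. The shares thus lay above those of all cells in the vascular class of both females. In pericyte-like cells they lay above them in 20GG79:1 and 20GG79:6 and below them in 20GG95:3. The shares of 20GG79:1 and 20GG79:6 rest on few cells. None of these differences was tested, since cells of a mouse are not replicates. Across cells, the Pearson correlation of the receptors on the log2(CPM + 1) scale was 0.30 in vascular cells (0.24 in 20GG79:1 and 0.31 in 20GG95:3) and 0.01 in pericyte-like cells (0.15, 0.00 and -0.03 in 20GG79:1, 20GG79:6 and 20GG95:3).

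**Figure D3:**
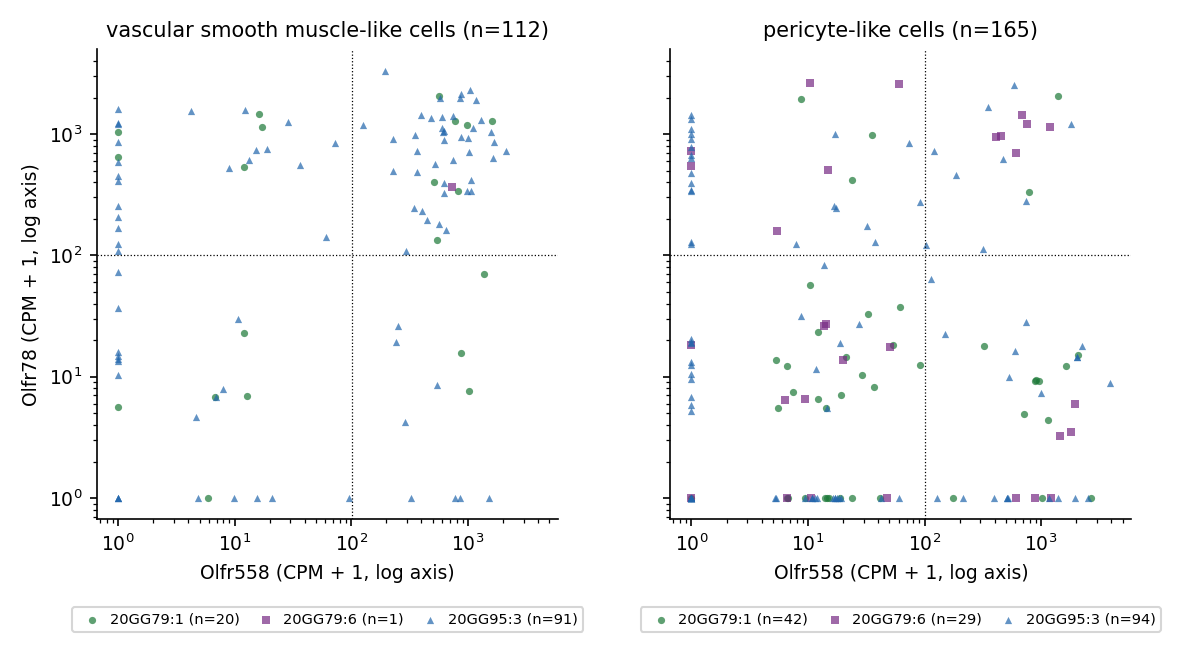
Olfr558 against Olfr78 in vascular smooth muscle-like (left) and pericyte-like cells (right), in CPM + 1 on log axes. Each point is a cell, its shape and colour give the mouse, and dotted lines mark 100 CPM. The upper right field, high for both, holds 50 of 112 vascular and 17 of 165 pericyte-like cells.

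Levels of the genes can be set beside each other only per length of transcript. Per kilobase of annotated exon, vascular cells had 153 ± 13.4 CPM of Olfr558 and 102 ± 3.65 CPM of Olfr78 (mean ± SD, n = 2 mice), and pericyte-like cells had 130 ± 31.8 and 55.1 ± 36.5 CPM (n = 3 mice). The exon lengths, 3041 bases for Olfr558 and 6033 for Olfr78, count every annotated exon. Each of the 4 transcripts of Olfr78 is shorter than that, which lowers its level per kilobase. Any reads of Olfr560 counted for Olfr78 would raise it, and neither effect was tested.

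Against the muscle of the gut wall, both receptors stood far higher in mural cells. Visceral smooth muscle-like cells had 0.997 CPM of Olfr558 in 20GG79:1, 2.28 CPM in 20GG79:6 (5 cells) and 0.258 CPM in 20GG95:3. They had 0.549, 1.52 and 6.97 CPM of Olfr78. Within each mouse the mural sums lay above the visceral sum for both genes, and the share of all genes that do so is not given here. Over the same mice, Olfr558 had a fitted log2 difference of 9.85 ± 0.66 (SE) and Olfr78 one of 8.29 ± 0.99 between vascular and visceral cells (n = 2 mice), and 8.72 ± 0.99 and 7.02 ± 1.04 between pericyte-like and visceral cells (n = 3 mice). The members were chosen as genes of mural cells, so these differences are given as a description. For reference, edgeR called 4.41% of 14904 genes between vascular and visceral cells, 328 higher and 329 lower, and 0.711% of 12525 genes between pericyte-like and visceral cells, 52 higher and 37 lower.

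A few visceral cells carried much of the remaining Olfr78. In 4 cells of 20GG95:3, all on its larger plate, it stood at 239, 710, 1141 and 1225 CPM. These cells held 82.9% of all Olfr78 counts of the visceral class. All 4 had 0 counts of Olfr558, and their level of Notch3 was between 0 and 25.8 CPM. On the smaller plate of this mouse the visceral class had 0.547 CPM of Olfr78, against 13.6 CPM on the larger. A cell of the fibroblast-like class had 373 CPM and an unnamed cell 185 CPM of Olfr78, and 2 fibroblast-like cells of 20GG79:1 had 247 and 381 CPM of Olfr558. These 4 cells had between 390 and 7514 CPM of Notch3.

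Low counts of both genes were spread over the other classes. For Olfr558 the summed level over the named classes outside the mural ones was 1.92 CPM and for Olfr78 2.04 CPM, with a count in 18.1% and 14.4% of 1252 cells. In blood endothelium-like cells of the 2 plates of the PDGFRbGFP mouse with the most cells, 47 of 125 had a count of Olfr558. Their summed level was 1.12 CPM, at a median depth of 428903 gene counts. None of the 199 cells of this mouse fell into a mural class. In the PDGFRaH2bGFP line 0 of 91 cells had a count of either gene, which allows a share of up to 3.97% (exact Clopper-Pearson 95% upper limit), or 3.30% by the floor of 3 cells of the total. Glia-like cells of 20GG79:6 had a count of Olfr78 in 16 of 21 cells and a summed 5.30 CPM, while the glia-like cells of the CSPG4dsRED mouse 19CB27:3 had it in 2 of 15, at 0.652 CPM. Whether these low counts are expression or background was not tested.

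The order of classes by summed level is led by the vascular and pericyte-like cells for both genes, whose mouse sums overlap for Olfr558. Below them, the mouse means were 2.50 ± 0.310 CPM of Olfr558 in glia-like (n = 2 mice), 2.32 ± 0.703 in epithelium-like (n = 3), 2.05 ± 3.98 in fibroblast-like (n = 5), 1.59 ± 0.764 in immune-like (n = 2), 1.18 ± 1.02 in visceral (n = 3), 0.790 ± 0.896 in lymphatic endothelium-like (n = 5) and 0.667 ± 0.606 in blood endothelium-like cells (n = 6). For Olfr78 they were 3.01 ± 3.46 CPM in visceral (n = 3), 2.98 ± 3.29 in glia-like (n = 2), 2.30 ± 2.76 in immune-like (n = 2), 1.22 ± 0.653 in epithelium-like (n = 3), 1.14 ± 1.12 in fibroblast-like (n = 5), 0.512 ± 0.577 in blood endothelium-like (n = 6) and 0.301 ± 0.294 in lymphatic endothelium-like cells (n = 5). Neighbours in this lower order did not differ beyond their spread.

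The other Olfr genes around the pair that have a row in the table, which leaves out Olfr560, were all but silent. Within 200 kb on either side the annotation places 42 genes, of which 29 have a row in the table. Among them 24 are other Olfr genes: 5 had no count in any cell and the others a count in at most 9 of 1615 cells. The receptor genes between the pair, Olfr33 and Olfr559, were counted in 1 and 5 cells. Trim68, a ubiquitin ligase gene whose start lies 14.9 kb before that of Olfr558, was counted in 192 cells and had 21.0 CPM in vascular, 49.7 CPM in pericyte-like and 12.2 CPM in visceral cells. Trim21, another member of that family, was counted in 56 cells.

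**Figure D4:**
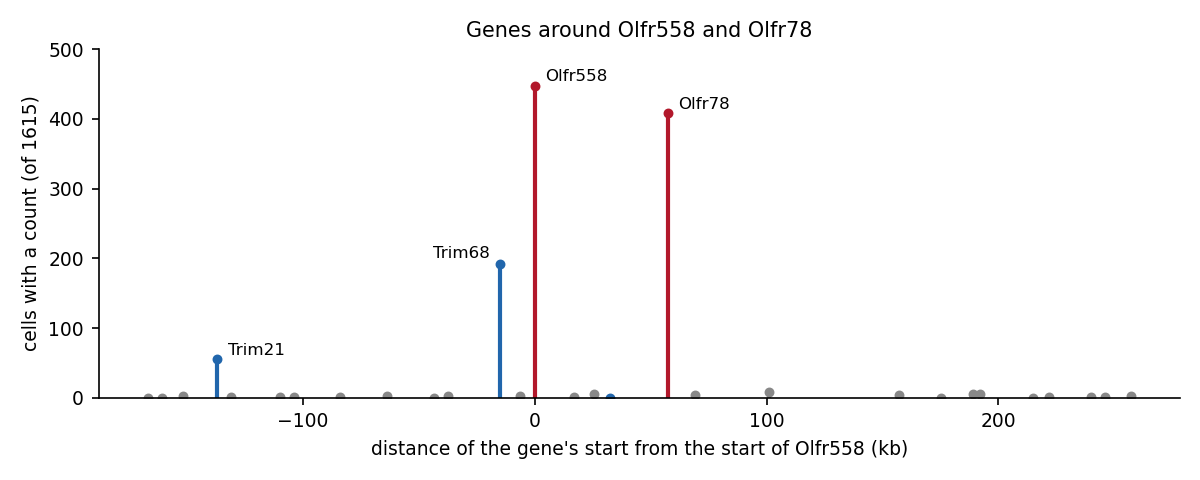
Number of cells with a count (of 1615) for each gene of the table within 200 kb of the pair, against the distance of its start from the start of Olfr558 in kb. Red marks Olfr558 and Olfr78, with 448 and 409 cells, grey other Olfr genes, with at most 9 cells, and blue other genes.

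Over the whole family, 658 of 1198 Olfr rows had a count in at least 1 cell, and 21 in at least 5 cells of a class. Olfr558 and Olfr78 together made up 90.6% of all Olfr counts in mural cells and 5.97% of those in the other cells. The next in mural cells was Olfr613, with 9.93 CPM. It was counted in 521 cells of all classes and reached its highest class sum, 14.6 CPM, in pericyte-like cells. The transcribed pseudogene Olfr1372-ps1 stood out in another vessel: in lymphatic endothelium-like cells it had between 104 and 287 CPM in 5 mice, with a count in 53 of 79 cells, 67.1% (95% interval 55.6 to 77.3), against 1.88 CPM in vascular and 2.78 CPM in pericyte-like cells. Olfr56 had its highest class sum in blood endothelium-like cells, at 35.5 CPM with a count in 170 of 358 cells, and its annotated span covers Olfr1396, so its reads are uncertain. The other 16 of the 21 reached at most 2.78 CPM in any class: Olfr1033, Olfr536, Olfr16, Olfr1346, Olfr1396, Olfr432, Olfr651, Olfr166, Olfr692, Olfr63, Olfr433, Olfr478, Olfr1442, Olfr456, Olfr287 and Olfr750.

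Of the genes that take part in olfactory signalling in the nose, Adcy3, the adenylyl cyclase of olfactory neurons, was at 359 ± 157 CPM in vascular cells against 60.9 ± 33.3 CPM in visceral cells (mean ± SD, n = 2 mice), higher in 2 of 2 mice by a log2 difference of 2.70 ± 0.40 (SE) with an edgeR adjusted p of 0.000822. It lost this call without the mouse as a block, at an edgeR adjusted p of 0.113, and was at 392 ± 190 CPM in pericyte-like cells (n = 3 mice), where it did not pass (adjusted p of 0.124 in edgeR). Of the 21 genes of this list, 10 were tested between vascular and visceral cells, 1 was higher and 0 lower, with a median log2 difference of 0.07 against -0.21 over all genes tested. Of all genes tested in that comparison, 4.41% were called. Gnal, the G protein subunit of olfactory neurons, was at 4.11 ± 1.63 CPM in vascular cells and 14.1 ± 7.27 CPM in visceral cells, and Gnas, its widely expressed relative, at 664 ± 140 and 612 ± 45.4 CPM. Neither passed. In the pericyte-like against visceral comparison 9 were tested and 0 passed, with a median of 0.05 against 0.07. Of all genes tested there, 0.711% passed.

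In the cyclic AMP pathway, 24 of 26 listed genes were tested between vascular and visceral cells, 3 were higher and 2 lower, with a median of 0.02 against -0.21 over all genes. Of all genes tested in that comparison, 4.41% were called. Pde3a, a phosphodiesterase that breaks down cyclic AMP, was higher in vascular cells by 2.46 ± 0.33 on the log2 scale (edgeR adjusted p of 0.000450; 680 ± 215 against 131 ± 35.5 CPM, n = 2 mice). Prkar1a, a regulatory subunit of protein kinase A, was higher by 1.60 ± 0.27, at 1898 ± 145 against 672 ± 112 CPM. Crem, a transcription factor that responds to cyclic AMP, was higher by 2.83 ± 0.64, at 118 ± 26.4 against 17.5 ± 1.25 CPM. The phosphodiesterase genes Pde4d and Pde7b had log2 differences of -6.26 ± 0.68 and -6.19 ± 1.49, at 2.28 ± 0.495 against 184 ± 19.5 CPM and 0.676 ± 0.593 against 44.2 ± 20.5 CPM. Each of these 5 moved the same way in 2 of 2 mice. Without the mouse as a block Pde3a, Prkar1a, Crem and Pde7b lost the call, with edgeR adjusted p-values of 0.0662, 0.0691, 0.0542 and 0.0745. Adcy5, a cyclase inhibited by calcium, was at 356 ± 67.4 CPM in vascular, 292 ± 18.0 CPM in visceral and 99.9 ± 42.9 CPM in pericyte-like cells of the same 2 mice, and passed no comparison. Between pericyte-like and visceral cells 22 of the genes were tested and 0 passed, with a median of 0.43 against 0.07. Of all genes tested there, 0.711% passed.

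Of the genes known from acute oxygen sensing in the carotid body, where Olfr78 is also found, 4 were higher in both mural classes than in visceral muscle. The gene lists were chosen with earlier results of these data known, so their calls are given as a description. Of 11 listed genes 7 were tested between vascular and visceral cells, 4 were higher and 0 lower, with a median of 2.83 against -0.21. Of all genes tested in that comparison, 4.41% were called. Between pericyte-like and visceral cells 5 were tested and the same 4 were higher, with a median of 6.26 against 0.07. Of all genes tested there, 0.711% were called. Ndufa4l2, a mitochondrial protein gene induced by low oxygen, was at 481 ± 188 CPM in vascular against 1.59 ± 0.200 CPM in visceral cells (n = 2 mice), a log2 difference of 8.28 ± 0.53 (edgeR adjusted p of 1.48e-06), and at 650 ± 131 CPM in pericyte-like cells (8.43 ± 0.71, edgeR adjusted p of 0.00375, n = 3 mice). Cox4i2, a subunit of cytochrome c oxidase, stood at 237 ± 103 CPM in vascular and 287 ± 32.5 CPM in pericyte-like cells against 1.16 ± 0.293 and 1.03 ± 0.312 CPM in the visceral cells of the same mice (log2 differences of 7.71 ± 0.68 and 7.86 ± 0.91). Rgs4, which shortens G protein signals, stood at 1800 ± 489 and 1145 ± 386 CPM against 8.80 ± 0.688 and 13.5 ± 8.07 CPM (7.74 ± 0.37 and 6.26 ± 0.60). Epas1, the oxygen-regulated transcription factor HIF-2 alpha, stood at 1438 ± 341 and 1345 ± 269 CPM against 212 ± 17.9 and 156 ± 98.9 CPM (2.83 ± 0.31 and 3.12 ± 0.57). Its call in pericyte-like cells was lost under 7 of 15 alternatives. With a spread shared over all classes, where edgeR called 9 genes between vascular and visceral cells, Rgs4 kept its vascular call while Cox4i2, Epas1 and Ndufa4l2 lost theirs, as did Adcy3 and the 5 genes of the cyclic AMP pathway. Kcnk3, the potassium channel TASK-1, was at 58.7 ± 23.2 CPM in vascular against 32.3 ± 5.94 CPM in visceral cells and at 72.5 ± 44.0 CPM in pericyte-like against 81.2 ± 84.8 CPM in visceral cells, and did not pass. Pcx, encoding pyruvate carboxylase, was at 1.62 ± 1.98 CPM and Slc18a2, a monoamine transporter gene, at 0.289 ± 0.409 CPM in vascular cells, and neither passed.

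Of 13 other receptors for short-chain fatty acids and metabolites, those with at least 10 CPM in a mural class were Hcar1, Hcar2 and Gpr4. Hcar1, the lactate receptor, stood at 179 ± 83.9 CPM in pericyte-like cells against 25.8 ± 33.3 CPM in visceral cells (n = 3 mice), a log2 difference of 3.57 ± 0.96 (edgeR adjusted p of 0.175), and at 47.6 ± 25.0 CPM in vascular cells (n = 2 mice). Hcar2, a receptor for butyrate and ketone bodies, stood at 48.9 ± 39.5 CPM in pericyte-like, 1.02 ± 1.35 CPM in vascular and 0.361 ± 0.381 CPM in visceral cells. Gpr4, a proton sensor, stood at 23 ± 24.1 CPM in pericyte-like and 25.8 ± 36.3 CPM in vascular cells. None of the 3 genes tested in each comparison passed. Of the list of monocarboxylate transport and lactate, 8 of 11 genes were tested between vascular and visceral cells and 7 between pericyte-like and visceral cells, and 0 passed in either. Of all genes tested, 4.41% passed in the first of these comparisons and 0.711% in the second. Slc16a7, a lactate and pyruvate transporter, was at 68.9 ± 12 CPM in vascular, 38.5 ± 7.09 CPM in visceral and 0.733 ± 0.637 CPM in pericyte-like cells of the same 2 mice, with an edgeR adjusted p of 0.345 between pericyte-like and vascular cells.

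**Figure D5:**
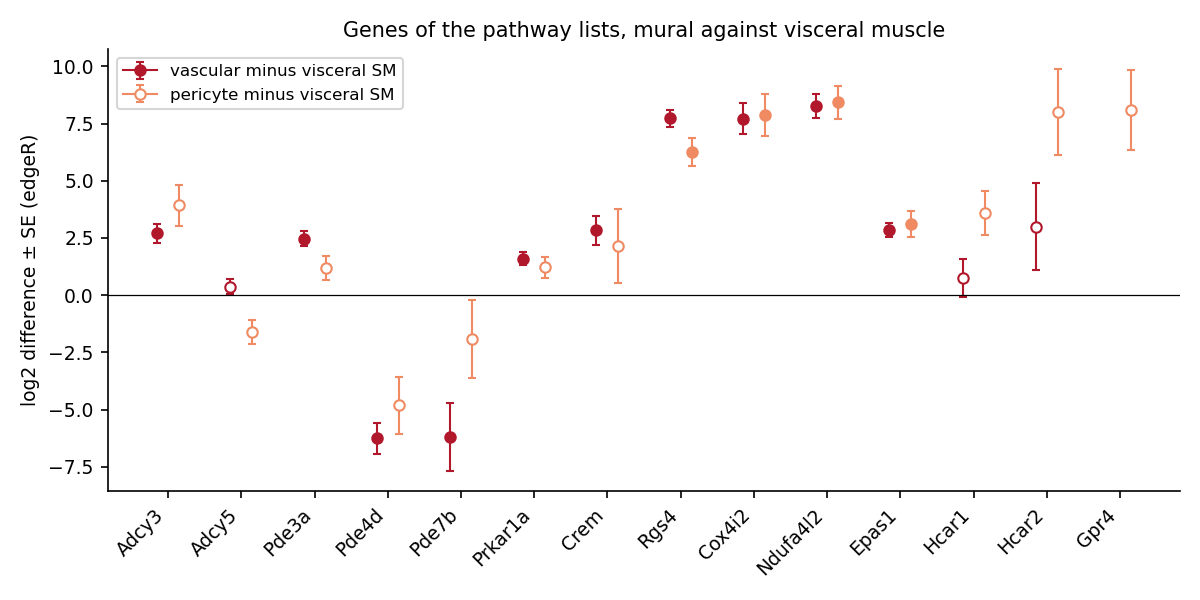
Log2 difference (edgeR, error bars are SE) of genes of the pathway lists between vascular and visceral smooth muscle (SM) in 2 mice (dark) and between pericyte-like and visceral cells in 3 mice (light). Filled points passed an adjusted p of 0.05. Ndufa4l2, Cox4i2 and Rgs4 lie above 6 in both comparisons, and Hcar1, Hcar2 and Gpr4 are open.

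Genes most like the pair were sought over the 31 sums of at least 5 cells of a class and mouse, among 13175 protein-coding genes that reached 20 CPM. The receptors had a Pearson correlation of 0.963 with each other on the log2(CPM + 1) scale, and only Slc38a11, an amino acid transporter gene, was closer to either, at 0.968 to Olfr558 and 0.970 to Olfr78. Next to Olfr558 came Crhr2 (0.961), a receptor for urocortins, Dgkg (0.952), Trarg1 (0.946), Tcap (0.940), Rgs4 (0.938), Nrip2 (0.937) and Ephx3 (0.931). Next to Olfr78 came Tcap (0.960), Trarg1 (0.957), Crhr2 (0.951), Dgkg (0.949), Nrip2 (0.948), Drd1 (0.946), a dopamine receptor gene, and Adamts13 (0.941). Slc38a11 had 112 CPM in vascular and 131 CPM in pericyte-like cells, Crhr2 177 and 92.4 CPM, and Drd1 90.4 and 47.8 CPM (means over mice). Nrip2 and Ephx3 were among the genes used for clustering. The sums share mice, plates and depth, and the correlations mainly set mural against other classes.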

How the data were processed

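The authors deposited raw counts per Ensembl gene for 1615 Smart-Seq2 cells. Per the submitters' processing notes, bcl2fastq, Bowtie, Bowtie2, featureCounts and Subread were used with GRCm38 (mm10). The sources used here do not give their roles, cell filters, strand setting or duplicate removal. No column was left unmapped. Counts were scaled to CPM over genes without ERCC spike-ins. Symbols came from GENCODE vM21, which matched 46005 identifiers.

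The members, gene lists, markers and tests were chosen with earlier results of these data known. Clustering (scanpy 1.11.5, igraph 0.11.9, Leiden resolution 1, 20 components, 15 neighbours) used 2089 genes, the markers and the 2000 most variable of the odd-numbered genes in alphabetical order, without Olfr and list genes. A cluster took the class with the highest mean marker difference, if 3 markers were in 25% of its cells. Clusters led by at least 2 markers of another class, or with a difference under 1 (log2), stayed unnamed, a rule set after the data were seen. No doublet caller was run. The classes and the tests rest on the same cells.

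Counts were summed per mouse and class, with at least 5 cells. Sums were tested with edgeR 4.0.16 (R 4.3.3; TMM, filterByExpr, robust quasi-likelihood fit, mouse as block), checked on simulated data. The pairing is by animal. The SE is the log2 difference over the square root of F. DESeq2 1.42.0 and limma 3.58.1 were alternatives. Named genes were the members, Olfr genes with a count in 5 cells of a class, neighbours within 200 kb, up to 4 genes per list and direction by smallest p, metabolite receptors at 10 CPM in mural cells, and the 8 genes most like each member. Labels name mice, so each sum is of 1 animal. With 1 or 2 residual degrees of freedom, the p-values rest mainly on a spread pooled over genes.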

Additional observations from a re-analysis of the deposited data

Results flagged for a closer look

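The levels of Olfr558 and Olfr78 in fibroblast-like (5 mice), blood endothelium-like (6 mice) and lymphatic endothelium-like cells (5 mice) make 6 groups that were examined for a mouse far from the others, and 2 had one. The rule is set to flag about 1 in 20 groups by chance when values are independent and normally distributed. These sums lie near 0 and the groups share mice, so the rate that holds here is not known. Olfr78 in blood endothelium-like cells stood at 1.58 CPM in mouse 20GG79:6, above the other 5 mice. Olfr558 in fibroblast-like cells stood at 9.12 CPM in mouse 20GG79:1, above the other 4 mice. Without its 2 cells at 100 CPM or more, of 128, that mouse had 1.30 CPM.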

How the results depend on the processing

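Over 11 main results and 144 alternatives, 91 values counted as the same, 50 counts or shares moved, 2 calls were gained and 1 value reversed. For the log2 differences of the members, the same meant an unchanged direction and call. For counts of genes it meant a ratio to the reported count within a set limit. For shares it meant a change under the SD over mice, which ran from 2.35 to 18.4 percentage points. The cause of these changes was not tested. Genes called between pericyte-like and vascular cells, 0 in the reported fit, were 44 with RLE size factors, 802 with DESeq2, 285 with no filter on low counts, 18 among cells with at least 100000 gene counts, 2 after dropping cells that hold another class's markers, 13 without the larger plate of 20GG95:3 and 0 to 0 with 1 mouse left out. The log2 difference of Olfr78 was -1.78 with DESeq2 and -1.85 with no filter, both past the threshold. With 1 mouse left out, the values come from each remaining mouse's own sums, chosen after seeing the data, and from a fit that also shares its spread over all classes. Olfr78 was at -1.80 to -0.74 over both. Olfr558 was at -1.38 to 0.37, with the reversed value of 0.37 from that fit without 20GG95:3, while the sums of the mouse that remained gave -0.23. Genes called between vascular and visceral cells, 657, were 1531 with DESeq2, 1140 with limma-voom, 9 with a spread shared over all classes, 348 without the smaller and 301 without the larger plate of 20GG95:3, and 0 to 0 with 1 mouse left out and the spread also shared, where the lone mouse is assumed to vary like the other classes. Genes called between pericyte-like and visceral cells, 89, were 57 with RLE size factors, 864 with DESeq2, 268 with limma-voom, 313 with no filter, 15 with a shared spread, 54 among cells with at least 100000 gene counts, 47 without the larger plate, 66 to 135 with 1 mouse left out, and 207 with the unnamed cluster of 66 cells added to the visceral class, an alternative chosen after seeing the data. Without the replicate block, the pairing by mouse, these counts were 9, 225 and 89, Olfr78 was -1.77 and Olfr558 -0.58.

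At 5 counts or more, detection of Olfr558 was 39.4% in pericyte-like and 58.0% in vascular cells, and of Olfr78 31.5% and 72.3%. At 10 CPM or more, Olfr558 was at 68.8% in vascular cells and Olfr78 at 49.7% and 79.5%. Thinned to 45000 counts, Olfr558 was at 66.2% in vascular cells and Olfr78 at 47.4% and 78.5%. At 100 CPM or more, chosen after seeing the data, Olfr558 was at 32.7% and 54.5% and Olfr78 at 29.1% and 68.8%. With 1 mouse left out, Olfr558 ran from 67.5 to 93.0% in pericyte-like and 76.1 to 85.7% in vascular cells, and Olfr78 from 63.2 to 71.8% and 87.0 to 95.2%. The share of Olfr558-positive mural cells with Olfr78 was 59.2% at 5 counts, 65.9% at 10 CPM, 64.0% thinned, 58.3% at 100 CPM, 70.9% without the smaller plate, 80.3% without the larger and 73.9 to 77.4% with 1 mouse left out. The converse share was 57.9% at 5 counts, 53.6% at 100 CPM and 71.1 to 91.5% with 1 mouse left out. Leiden resolution 0.5 joined the mural cells into 1 unnamed cluster of 277 and gave no value. Of 200 alternatives for 14 named genes, 48 lost the call.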
